A study of Mus musculus with 15 samples.

Results

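The genes described here are 7 Toll-like receptor genes (Tlr1, Tlr2, Tlr3, Tlr4, Tlr7, Tlr9 and Tlr13), the co-receptor gene Cd14, the adaptor gene Myd88 and the lectin receptor gene Clec7a. They were listed by gene symbol, with no threshold on a measured value but with earlier results of these data known, and are 10 of the 46078 genes in the count table. All 10 passed the filter on low counts, which kept 18974 genes for testing. RNA was sequenced from brain tissue of 15 mice, 1 library each, to ask what amyloid transgenes change in the brain and what an antibody against CD8a changes in mice that carry them. CD8a is a surface protein of cytotoxic T cells. The brain region was dissected from 1 hemisphere after perfusion and is not named in the sources used here.

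There were 3 groups of 5 mice. Wild-type (WT) mice received PBS, APP-PS1 mice received PBS, and further APP-PS1 mice received the anti-CD8a antibody. APP-PS1 mice (APP Swedish PS1 dE9), a model of Alzheimer's disease, carry the chimeric mouse and human transgene Mo/HuAPP695swe and the mutant human presenilin transgene PS1-dE9. The prion protein promoter directs both to neurons of the central nervous system. Mice were 12 months old when used and were treated for 4 weeks with 10 injections into the abdomen, either of 0.8 mg antibody or of 100 µL PBS. The protocol also names an isotype antibody, which was not analysed here, so treated mice are compared with mice given PBS. Each group held both sexes, with 4 females and 1 male among WT mice by their labels.

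Toll-like receptors are sensors of microbial and self molecules. Those at the cell surface bind lipids and proteins of microbial walls, those in endosomes bind nucleic acids, and most pass the signal on through the adaptor MyD88 to NF-kB and cytokine genes. Clec7a encodes dectin-1, a receptor for beta-glucans of fungal walls that signals through the kinase Syk, and CD14 hands lipids such as lipopolysaccharide to the surface receptors. In the brain these genes are mainly used by microglia, the resident macrophages, although Tlr3 is also used by astrocytes and other cells, and Clec7a is known as a marker of microglia that gather at amyloid plaques.

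Depth ranged from 17736524 to 36485809 counts in genes per library, so 3 counts stood for 0.0822 to 0.169 CPM (counts scaled to library size) before TMM factors were applied, a floor that covers counting error only. All other CPM values include TMM factors. Markers of neurons, astrocytes, oligodendrocytes and microglia were all detected. Some libraries stood apart. The choroid plexus gene Ttr was above 1000 CPM in 5 libraries (WT replicates 3 and 5, APP-PS1 PBS replicates 2 and 5 and anti-CD8a replicate 1) and between 21.0 and 107 CPM in the others. In 1 library, APP-PS1 PBS replicate 1, the label says male, whereas Xist stood at 1932 CPM and the summed Y-linked genes at 2.09 CPM, as in females. The tests use the labelled sex, and results that changed without the libraries rich in Ttr, or with the sex read from these genes, are given with both values.

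To compare genes, levels were taken per kilobase of exon. This scale does not correct for reads lost over exon junctions, which affects genes with many exons more (8 exons in Tlr3, 1 in Cd14). In WT brain Tlr3 was highest at 4.23 ± 0.519 CPM per kb (SD, n = 5). Its lowest WT library (3.71) lay above the highest WT library of any other of the 10 genes. Myd88 (1.94 ± 0.228 CPM per kb) and Tlr7 (1.81 ± 0.228) followed and did not differ beyond their spread, and the same held for the next neighbours, Cd14 (1.33 ± 0.177) and Tlr13 (1.03 ± 0.138). Tlr4 (0.660 ± 0.0626), Tlr2 (0.629 ± 0.140) and Tlr9 (0.576 ± 0.118) overlapped each other. Clec7a (0.235 ± 0.0883 CPM per kb) and Tlr1 (0.209 ± 0.0442) were lowest and overlapped as well. In APP-PS1 mice given PBS Tlr3 was again highest (5.03 ± 0.473 CPM per kb) and Tlr1 again lowest (0.542 ± 0.151). Tlr7 (3.53 ± 0.618), Clec7a (3.07 ± 0.716) and Cd14 (3.07 ± 0.607) came next and overlapped each other, so Clec7a stood near the top of the order there and near its foot in WT brain.

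Upstream regions were searched for motifs as a description, and any link to the changes in level was not tested. No promoter entry was at hand for Cd14, Tlr4 or Tlr7. Of the 10 genes, 7 had an entry among the RefSeq promoters (GRCm38.p6), and the 250 bases before each start were searched on both strands for 3 motifs: the core of PU.1, the transcription factor that defines macrophages and microglia (GAGGAAG), the AP-1 site (TGANTCA) and the interferon-stimulated response element (GAAA, any 2 bases, GAAA). No 2 of these motifs overlapped in these genes. The PU.1 core was in the windows of Tlr1, Tlr13 and Tlr9, and 10.61% of all 32851 promoters of the same length held it. These exact letters were not in those of Clec7a, Tlr2, Tlr3 or Myd88. Shorter or inexact forms of the core were not searched. The Clec7a window below holds gaggaaa, which differs from the searched letters in the last base only. That of Tlr2 holds aaggaag on the other strand, which differs in the first base only. How many promoters hold such near forms was not counted, so they do not mark out these genes. The AP-1 site was in that of Tlr9 (6.749% of all promoters) and the interferon element in that of Myd88 (2.977%). A match is a description of these letters, not of a bound site. Below are Clec7a, the gene with the largest change, and the 3 genes with the PU.1 core, which is in capitals; each reads 5′ to 3′ on the gene's own strand.
Clec7a (chr6:129472780-129473029, minus): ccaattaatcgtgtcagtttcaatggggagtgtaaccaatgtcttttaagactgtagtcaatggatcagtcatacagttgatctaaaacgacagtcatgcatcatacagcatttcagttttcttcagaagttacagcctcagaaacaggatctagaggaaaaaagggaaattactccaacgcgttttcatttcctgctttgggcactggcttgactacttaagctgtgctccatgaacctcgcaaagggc
Tlr1 (chr5:64933559-64933808, minus): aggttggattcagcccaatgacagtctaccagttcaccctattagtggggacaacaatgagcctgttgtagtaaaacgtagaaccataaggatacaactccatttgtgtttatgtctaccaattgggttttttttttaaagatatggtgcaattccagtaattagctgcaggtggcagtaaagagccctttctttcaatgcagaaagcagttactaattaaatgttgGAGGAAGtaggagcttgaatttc
Tlr13 (chrX:106143025-106143274, plus): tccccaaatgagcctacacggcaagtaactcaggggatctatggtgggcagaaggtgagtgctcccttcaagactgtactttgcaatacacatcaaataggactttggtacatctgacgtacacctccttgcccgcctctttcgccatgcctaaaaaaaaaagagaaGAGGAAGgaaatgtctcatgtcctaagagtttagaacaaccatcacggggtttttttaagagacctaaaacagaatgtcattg
Tlr9 (chr9:106222348-106222597, plus): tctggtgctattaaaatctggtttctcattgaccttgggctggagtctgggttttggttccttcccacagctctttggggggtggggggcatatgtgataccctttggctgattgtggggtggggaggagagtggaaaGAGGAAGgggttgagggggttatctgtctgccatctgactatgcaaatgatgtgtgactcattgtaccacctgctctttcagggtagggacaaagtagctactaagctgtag
The core began at position -23 from the start in Tlr1, -83 in Tlr13 and -112 in Tlr9. RefSeq lists a further start for Tlr1, whose window (chr5:64932700-64932949) held none of the 3 motifs.

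The 10 genes lie at separate places in the mouse genome (GRCm38, GENCODE M21). Clec7a is at chr6:129461591-129472779 on the minus strand and is classed there as a polymorphic pseudogene, a class for genes that code in some strains and not in the reference. Tlr1 (chr5:64924679-64933563, minus) lies beside Tlr6 (chr5:64952031-64960097, minus), a related gene, and reads that match both cannot be assigned with certainty. Tlr7 (chrX:167304929-167330558, minus) and Tlr13 (chrX:106143204-106160493, plus) are X-linked. Tlr2 is at chr3:83836272-83841767 (minus), Tlr4 at chr4:66827584-66930284 (plus), Tlr9 at chr9:106222598-106226883 (plus) and Cd14 at chr18:36725067-36726798 (minus). Tlr3 (chr8:45395665-45411080, minus) overlaps Gm45542 on the other strand, and Myd88 (chr9:119335934-119341411, minus) overlaps Slc22a14 and Acaa1a, so the counts of these 2 genes are less certain.

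APP-PS1 and WT mice, both under PBS, were compared first, to see the effect of the transgenes. The lectin receptor Clec7a rose most, 15.0-fold, and Tlr1, Cd14, Tlr2, Tlr7 and Tlr13 rose between 2.02-fold and 2.81-fold. These 6 of the 10 genes passed the test, all higher in APP-PS1 mice, where 1.03% of the 18974 genes tested passed in either direction and 0.938% passed as higher. The other 4, Tlr4, Tlr3, Tlr9 and Myd88, had estimates above 0, as 46.9% of genes tested did, and did not pass. The median log2 fold change of the 10 genes was 1.09, beside -0.01 over all genes tested. In the bulk tissue a change in the number of cells that use a gene and a change in its RNA per cell cannot be told apart.

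**Figure D1:**
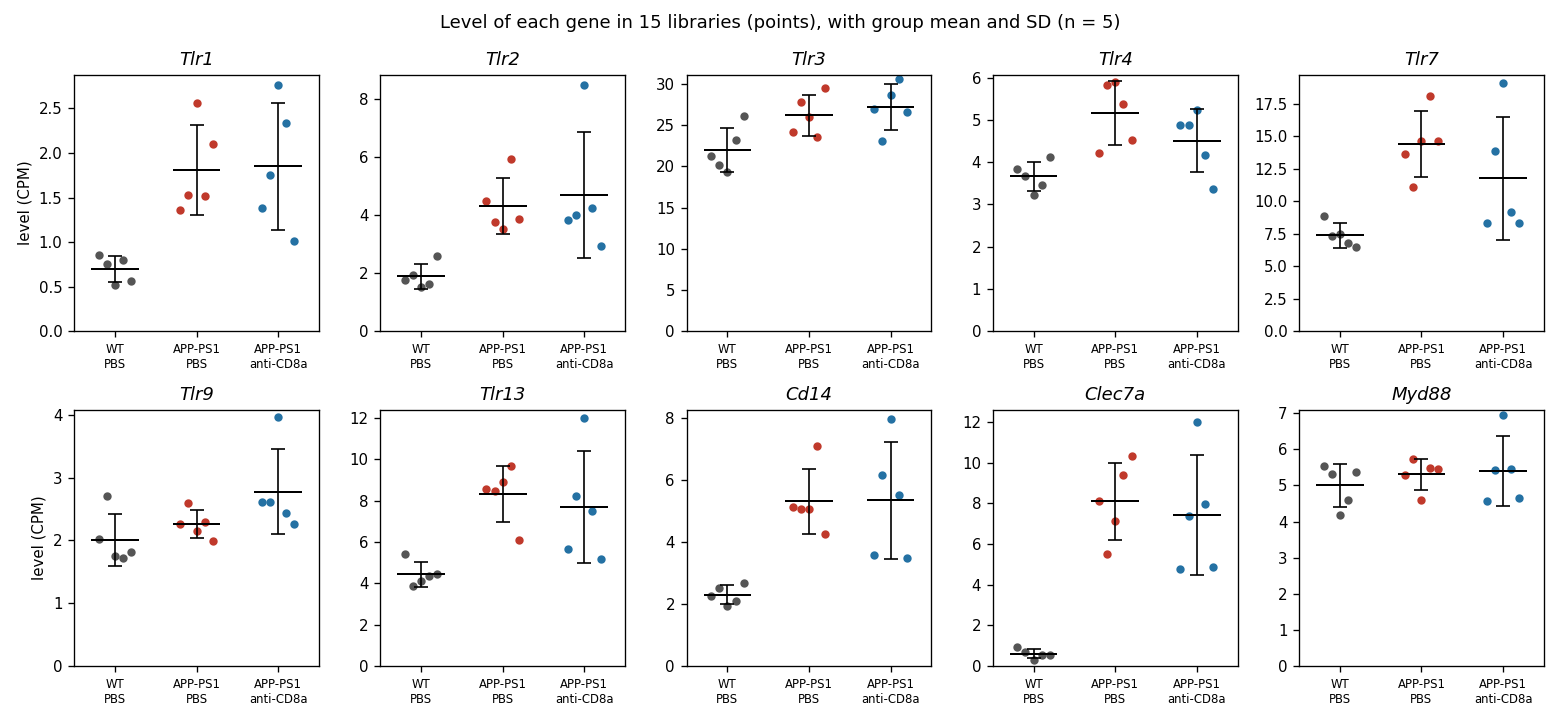
Level of each of the 10 genes in CPM (y axis, from 0, 1 scale per gene) in the 5 libraries of each group (points), with the group mean and SD (bars). Clec7a is below 1 CPM in every WT library and above 4 CPM in every APP-PS1 library, while Myd88 and Tlr9 overlap between all groups.

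Clec7a was at 0.946, 0.722, 0.317, 0.548 and 0.565 CPM in WT replicates 1 to 5. In APP-PS1 mice given PBS it was at 8.11, 5.51, 7.15, 9.41 and 10.3 CPM. The lowest APP-PS1 library was well above the highest WT library, and each WT library still held 11 to 30 counts, so the WT level was measured and not a floor. The log2 fold change was 3.90 (SE 0.26), or 15.0-fold with a 95% interval from 10.2 to 21.9 (adjusted p = 3.53e-07 by quasi-likelihood in edgeR), the fourth smallest p of all genes tested. Leaving out any 1 library gave log2 fold changes between 3.71 and 4.07.

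Among the surface receptors, Tlr2 pairs with Tlr1 to bind bacterial lipopeptides. Tlr1 was at 0.851, 0.758, 0.518, 0.801 and 0.565 CPM in WT mice and at 1.36, 1.53, 2.57, 1.51 and 2.10 CPM in APP-PS1 mice given PBS. The groups did not overlap, and the log2 fold change was 1.49 (SE 0.28, adjusted p = 0.0139 in edgeR). Without the 5 libraries rich in Ttr the log2 fold change of Tlr1 was 1.25 and its call was lost (adjusted p = 0.586 in edgeR, where 98 genes or 0.513% were called). Tlr1 held 18 to 83 counts per library.

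Tlr2 was at 1.77, 1.95, 1.53, 1.64 and 2.60 CPM in WT mice and at 4.49, 3.77, 3.53, 5.93 and 3.87 CPM in APP-PS1 mice given PBS. Again every APP-PS1 library lay above every WT library, and Tlr2 rose by 1.27 on the log2 scale (edgeR SE 0.25, adjusted p = 0.0195). This call was near the threshold. It was lost without WT replicate 1, 3 or 4 or without APP-PS1 PBS replicate 4, with adjusted p values in edgeR from 0.0548 to 0.0652 and log2 fold changes from 1.13 to 1.23.

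Tlr4, the receptor for lipopolysaccharide, moved less than its co-receptor Cd14. Cd14 was at 2.27, 2.53, 1.93, 2.11 and 2.69 CPM in WT mice and at 5.12, 5.05, 5.05, 7.08 and 4.25 CPM in APP-PS1 mice given PBS, without overlap (1.31 on the log2 scale, edgeR SE 0.21, adjusted p = 0.00332). Tlr4 was at 3.85, 3.68, 3.23, 3.46 and 4.13 CPM against 4.22, 5.83, 5.89, 5.38 and 4.53 CPM. Its groups did not overlap either, but the highest WT and the lowest APP-PS1 library were close, and the log2 fold change of 0.50 (SE 0.14) did not pass (adjusted p = 0.148 in edgeR). Whether the changes of Cd14 and Tlr4 differ was not tested.

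The endosomal receptors divided. Tlr7, a sensor of RNA rich in uridine, was at 8.89, 7.33, 7.46, 6.79 and 6.47 CPM in WT mice and at 13.6, 11.1, 14.6, 18.1 and 14.6 CPM in APP-PS1 mice given PBS. The groups were clearly apart, and Tlr7 rose by 1.17 on the log2 scale (edgeR SE 0.15, adjusted p = 7.04e-04), the second smallest p of the 10 genes. Tlr13, a mouse receptor for bacterial ribosomal RNA that humans lack, was at 5.42, 3.86, 4.12, 4.34 and 4.44 CPM against 8.54, 8.46, 8.87, 9.68 and 6.07 CPM. Its log2 fold change was 1.01 (SE 0.20, adjusted p = 0.0157 in edgeR), and without APP-PS1 PBS replicate 4 it was 0.98 and did not pass (adjusted p = 0.0503 in edgeR).

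Tlr9, the receptor for DNA with unmethylated CpG, and Tlr3, the receptor for long paired RNA, did not pass. Tlr9 was at 2.02, 2.71, 1.76, 1.73 and 1.81 CPM in WT mice and at 2.26, 2.60, 2.14, 2.30 and 1.99 CPM in APP-PS1 mice given PBS, and the groups overlapped (log2 fold change 0.25, 95% interval -0.12 to 0.63, adjusted p = 0.608 in edgeR). Tlr3 ranged from 19.3 to 26.1 CPM and from 23.6 to 29.4 CPM in the same groups (0.21, 95% interval 0.01 to 0.40, adjusted p = 0.404 in edgeR). Myd88, the adaptor that the other Toll-like receptors of the 10 genes share and Tlr3 does not use, ranged from 4.18 to 5.55 CPM and from 4.58 to 5.72 CPM (0.13, 95% interval -0.14 to 0.40, adjusted p = 0.733 in edgeR). None of these 3 intervals reaches a log2 fold change of 1. In all, the groups did not overlap for 7 of the 10 genes, with APP-PS1 above WT, which held for 1.88% of the genes tested.

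**Figure D2:**
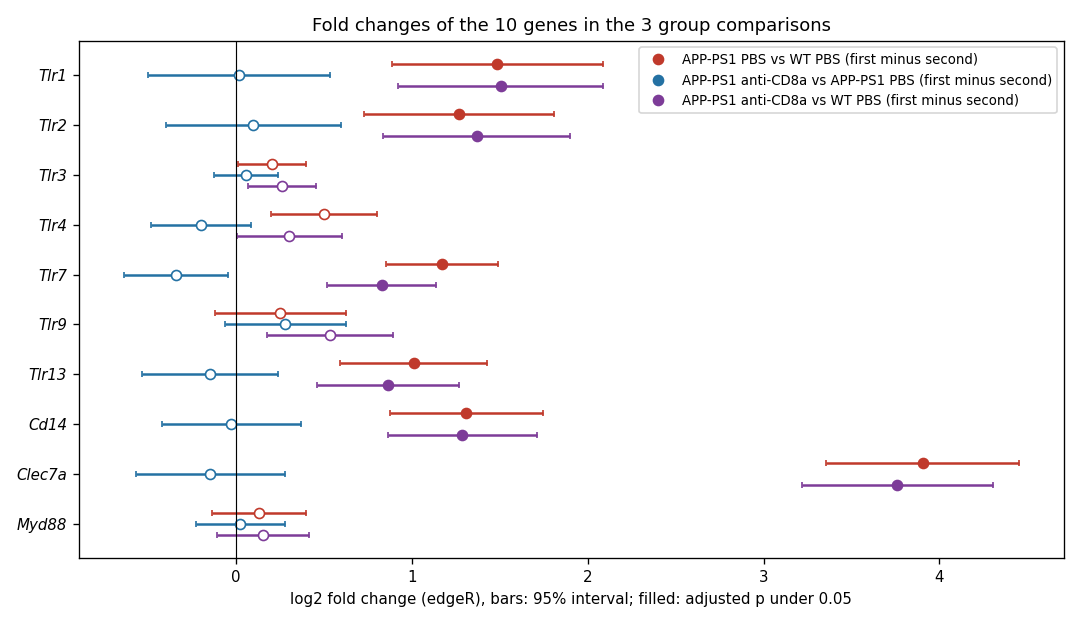
Log2 fold change of each of the 10 genes (x axis, edgeR) in the 3 group comparisons, with 95% intervals (bars), and filled points for an adjusted p under 0.05. The 6 genes called against WT are filled in both comparisons with WT, and all 10 points of the comparison between APP-PS1 groups are open.

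The genes around the receptors were read from lists of known pathway members. Of the other Toll-like receptors, Tlr8 and Tlr11 were below the filter, with at most 21 counts and 2 counts in a library. None of the 3 tested passed: Tlr12, a sensor of profilin, had 0.94 on the log2 scale (edgeR SE 0.26, adjusted p = 0.134), the flagellin receptor Tlr5 0.55 and Tlr6, the other partner of Tlr2, 0.25. Among 8 receptor partners and trafficking genes 2 passed, both higher. These were Cd180 (1.35, SE 0.27, adjusted p = 0.0185 in edgeR), a receptor related to the Toll-like receptors, and Ly86 (1.18, SE 0.14, adjusted p = 2.92e-04), which encodes the MD-1 protein that binds CD180. Ly86 was at 23.5 ± 3.24 CPM in APP-PS1 and 11.2 ± 1.40 CPM in WT mice (SD, n = 5 each), without overlap. Unc93b1, the chaperone that brings nucleic acid receptors to endosomes, had 0.37 (adjusted p = 0.141 in edgeR).

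In the bulk tissue the signalling genes downstream of the receptors differed little. Their WT means varied widely, with Tollip at 149 CPM, Traf3 at 93.9 CPM and Ticam2 at 0.919 CPM, beside 1.90 CPM for the receptor gene Tlr2. Their change within microglia was not measured. None of the 4 further adaptors, 12 proximal kinases and ligases, 11 NF-kB and IRF genes or 8 brakes on the pathway passed, and their median log2 fold changes were 0.09, 0.03, 0.03 and -0.01. Of each list the genes of smallest p were Ticam2 (0.28), an adaptor of Tlr4, Tab1 (-0.14), a partner of the kinase TAK1, Irf5 (0.45), a transcription factor downstream of MyD88, and Tnfaip3 (-0.20), the A20 brake on NF-kB. Of 8 genes of dectin-1 signalling 1 passed, the exchange factor gene Vav1 (0.69, SE 0.14, adjusted p = 0.0195 in edgeR), while Syk, the kinase that dectin-1 recruits, had 0.42 (adjusted p = 0.209) and Src -0.17. Of 15 other C-type lectin receptor genes of myeloid cells 10 were tested and 1 passed, Clec5a (0.86, SE 0.16, adjusted p = 0.0138 in edgeR), against 3.90 for Clec7a.

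Of 18 target cytokine and chemokine genes 8 were below the filter, among them Tnf, Il6 and Ifnb1. Of the 10 tested, 2 passed, both higher. Ccl3 was at 1.94 ± 0.549 CPM in APP-PS1 and 0.279 ± 0.0729 CPM in WT mice (2.95 on the log2 scale, edgeR SE 0.32, adjusted p = 1.29e-04), and Ccl4 at 0.700 ± 0.275 and 0.134 ± 0.0857 CPM (2.50, SE 0.46, adjusted p = 0.0120), with WT levels of Ccl4 near the floor. Il1a had 0.69 (adjusted p = 0.192 in edgeR). The median of the 10 was 0.62.

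**Figure D3:**
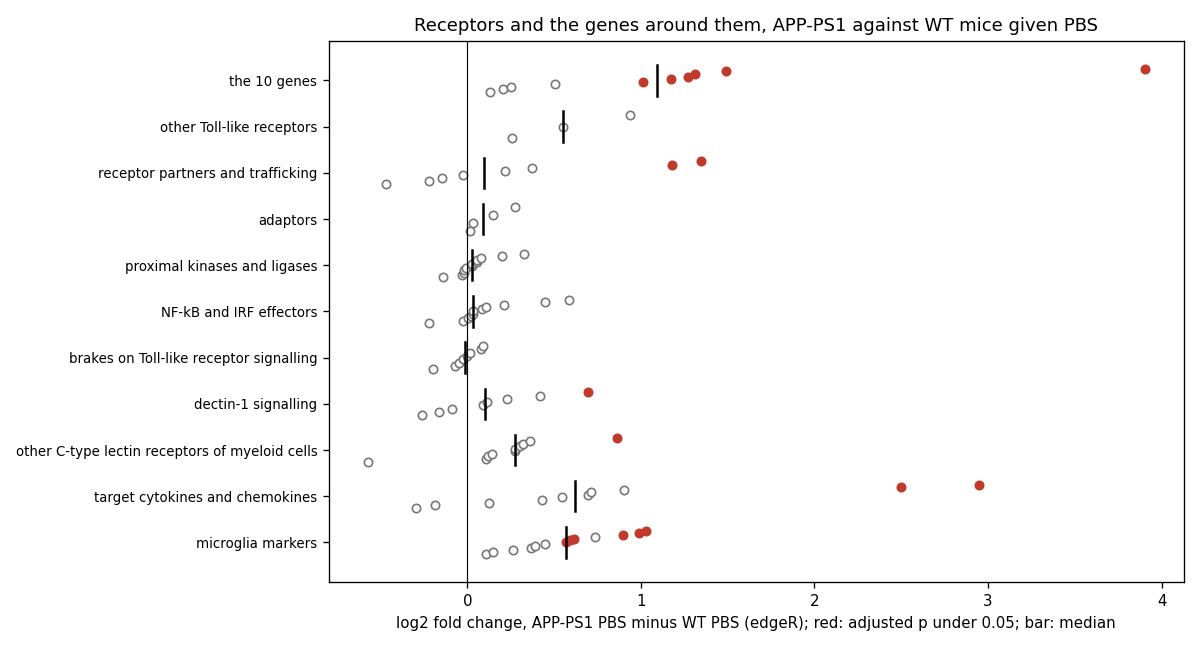
Log2 fold change of each tested gene (x axis, edgeR) in APP-PS1 mice given PBS relative to WT mice, for the 10 genes, 9 lists of pathway genes and microglia markers (points, set apart vertically for legibility, red for an adjusted p under 0.05), with each list's median (bar). The medians of adaptors, kinases, NF-kB and IRF genes and brakes lie near 0, and those of the 10 genes and of the microglia markers at 1.09 and 0.57.

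Of 13 microglia markers 6 rose alongside. In APP-PS1 mice given PBS the fitted estimates of all 13 were above those in WT mice, and those that passed numbered 6, among them Fcrls, Csf1r, Gpr34, Siglech and Cx3cr1, with a median log2 fold change of 0.57 over the 13. Tmem119 did not pass (0.11), and its group means were 23.7 ± 4.09 CPM in APP-PS1 and 24.4 ± 2.32 CPM in WT mice. The summed level of the 13 was 469 to 555 CPM in WT mice, 678 to 860 CPM in APP-PS1 mice given PBS and 642 to 1161 CPM in treated mice. Markers of other myeloid cells did not pass in any comparison between groups. Border macrophage markers summed to 31.8 to 52.2 CPM in WT mice, 27.8 to 56.9 CPM in APP-PS1 mice given PBS and 30.1 to 47.8 CPM in treated mice, and of 10 monocyte and neutrophil markers 7 or 8 had a group mean under 0.5 CPM, among them S100a8 and S100a9. Of the B cell and dendritic cell markers 5 or 6 of 9 were under 0.5 CPM, and Ccr7 was at 0 in all 5 libraries of APP-PS1 mice given PBS. T cell markers summed to 2.82 to 4.48 CPM over all libraries, and 6 of 8, the defining Cd3e and Cd8a among them, were under 0.5 CPM in every group. Choroid plexus markers had lower estimates in APP-PS1 mice given PBS than in WT mice for 13 of 14 (median log2 fold change -0.53), and for 14 of 14 in treated mice, against mice given PBS (-1.52) and against WT mice (-1.85), with none passing. Of 8 astrocyte markers Aqp4 passed, higher in APP-PS1 mice given PBS (0.46, SE 0.10, adjusted p = 0.0459 in edgeR), and no marker of neurons, oligodendrocytes or endothelial cells passed in any comparison. The part of these markers in the results was not tested beyond the covariate fits given.

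The levels were then set against the summed microglia markers. Clec7a was at 1.19 ± 0.417 CPM per 1000 CPM of microglia markers in WT mice and at 10.8 ± 2.03 in APP-PS1 mice given PBS (SD, n = 5 each), a ratio of 9.40. On this scale Tlr1 was 1.78-fold and Cd14 1.58-fold higher, and these 3 were the genes of the 10 whose groups did not overlap with APP-PS1 above, as was the case for 0.295% of genes tested. Tlr2 (1.57-fold), Tlr7 (1.34-fold) and Tlr13 (1.29-fold) were higher on average with overlap, Tlr4 was level (0.971-fold), and Tlr3 (0.826-fold), Tlr9 (0.788-fold) and Myd88 (0.737-fold) were lower on average with overlap. The marker sum was itself higher in APP-PS1 mice, so genes of unchanged level fall on this scale. Of all genes tested 58.7% lay wholly below WT there. In treated mice Clec7a was 7.80-fold above WT on this scale, the only one of the 10 without overlap above (0.29% of genes tested), and Myd88 was 0.699-fold, without overlap below, as were 54.7% of genes tested.

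With the log2 of the summed markers as a covariate in edgeR, Clec7a alone of the 10 genes passed (log2 fold change 2.94, SE 0.35, adjusted p = 0.00190), where 8 genes of all those tested did (0.0422%). The log2 fold changes of the others were 0.67 for Tlr1, 0.51 for Tlr7, 0.38 for Cd14, 0.12 for Tlr13 and 0.03 for Tlr2. The marker sums of WT and APP-PS1 mice did not overlap, so in this fit genotype and marker level are hard to tell apart and standard errors rise, for Tlr1 from 0.28 to 0.45. The markers themselves can change within microglia, and their part in the result was not tested further.

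**Figure D4:**
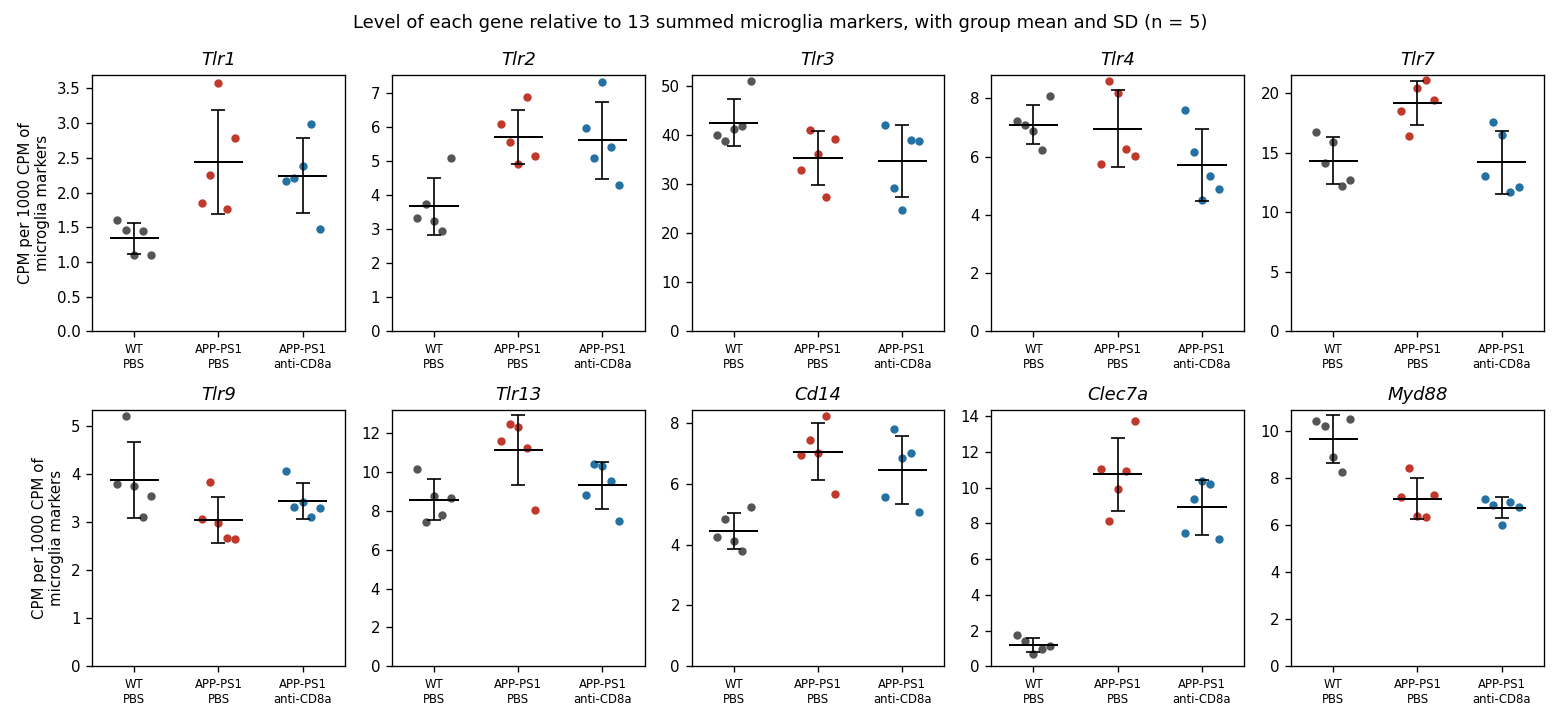
Level of each of the 10 genes per 1000 CPM of 13 summed microglia markers (y axis, from 0) in the 5 libraries of each group (points), with mean and SD (bars). Clec7a stays apart between genotypes at 1.19 in WT against 10.8 and 8.90 in the APP-PS1 groups, while Tlr4 and Tlr3 overlap between groups.

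Treated APP-PS1 mice were next set against those given PBS, to see the effect of the antibody. None of the 10 genes passed, and neither did any other gene in edgeR (0% of genes tested, with 2529 or 13.3% at an unadjusted p under 0.05). DESeq2 called 143 genes (1.04% of those it tested) and none of the 10. The levels of the 2 groups overlapped for all 10 genes, where 0.933% of genes tested lay apart with treated mice above and 0.733% with them below. Of the 10 estimates 5 were above 0, as 54.1% of all were, with a median log2 fold change of -0.003.

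Clec7a was at 4.79, 7.40, 12.0, 7.97 and 4.89 CPM in treated mice, a range that holds that of the PBS group (log2 fold change -0.14, 95% interval -0.57 to 0.28). Tlr7 was the only one of the 10 with an unadjusted p under 0.05. It was at 8.35, 13.9, 19.1, 9.16 and 8.36 CPM in treated mice, so 3 treated libraries were below the lowest library of the PBS group (11.1 CPM) and 1 was above its highest (18.1 CPM). Its log2 fold change was -0.34 (SE 0.14, 95% interval -0.64 to -0.04, adjusted p = 0.331 in edgeR). With sex taken from Xist and the Y-linked genes instead of the label, the estimate was -0.24 (SE 0.15).

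The intervals limit what a change could have been. For Cd14 (-0.02) it ran from -0.42 to 0.37, for Myd88 (0.03) from -0.23 to 0.28 and for Tlr3 (0.06) from -0.12 to 0.24. Tlr2 (0.10, -0.40 to 0.60) and Tlr1 (0.02, -0.50 to 0.54) were less precise. Tlr4 had -0.20 (-0.48 to 0.09), Tlr13 -0.14 (-0.53 to 0.24) and Tlr9 0.28 (-0.06 to 0.63). None of these intervals reaches a log2 fold change of 1 in either direction. They do not show that the levels were equal. In the pathway lists no gene was called by edgeR either. Of the genes named there, DESeq2 called Irf7, the interferon regulatory factor downstream of Tlr7 and Tlr9 (edgeR log2 fold change 0.97, SE 0.27, adjusted p = 0.229, DESeq2 adjusted p = 0.0480), and Tab1 (0.29, SE 0.07, DESeq2 adjusted p = 0.0222).

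Anti-CD8a replicate 3 was the highest of its group for 9 of the 10 genes, all but Tlr3, and had the highest sum of microglia markers (1161 CPM, next 790 CPM). Without it the log2 fold changes of Tlr2 and Tlr13 between the APP-PS1 groups were -0.20 and -0.32. Treated libraries spread more than those of the PBS group for Tlr7 (SD 4.70 against 2.52 CPM), Tlr2 (2.17 against 0.967 CPM) and Tlr13 (2.70 against 1.35 CPM), a difference in spread that was not tested.

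A further comparison set treated mice against WT mice, which joins genotype and treatment and shares its 5 WT libraries with the first comparison. Clec7a, Tlr1, Tlr2, Cd14, Tlr13 and Tlr7 passed here too, all higher, 6 of the 10 genes where 1.94% of genes tested passed and 1.76% passed as higher. For Clec7a the estimate was 3.76 on the log2 scale (edgeR SE 0.26, adjusted p = 4.30e-07), next to 3.90 in the first comparison. Tlr1 had 1.51 (SE 0.27, adjusted p = 0.00673), Tlr2 1.37 (SE 0.25, adjusted p = 0.00676) and Cd14 1.29 (SE 0.20, adjusted p = 0.00206), and these 4 genes did not overlap with WT, as held for 2.2% of genes tested with treated mice above.

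Tlr13 (0.87, SE 0.19, adjusted p = 0.0234 in edgeR) and Tlr7 (0.83, SE 0.15, adjusted p = 0.00531) overlapped with WT. The lowest treated libraries were at 5.16 CPM of Tlr13 and 8.35 CPM of Tlr7, below the highest WT libraries at 5.42 and 8.89 CPM. Without anti-CD8a replicate 3 the calls of Tlr13 and Tlr1 were lost (log2 fold changes 0.62 and 1.28, adjusted p = 0.185 and 0.0633 in edgeR). The call of Tlr13 was also lost without WT replicate 2, 3 or 4 (adjusted p from 0.0567 to 0.0668 in edgeR), that of Tlr1 without the 5 libraries rich in Ttr (1.33, adjusted p = 0.182), that of Tlr13 with choroid plexus markers as a covariate (0.81, adjusted p = 0.0638), and that of Tlr7 without sex in the model (0.67, adjusted p = 0.153). Tlr9 (0.54, adjusted p = 0.158), Tlr4 (0.31), Tlr3 (0.27) and Myd88 (0.16) did not pass.

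Around the receptors, genes that passed against WT in treated mice were Tlr12 (1.23, SE 0.25, adjusted p = 0.0157 in edgeR), the partners Cd180 (1.68), Ly86 (1.26) and Unc93b1 (0.68, SE 0.10, adjusted p = 0.00181), and the transcription factors Irf7 (1.55) and Irf5 (0.66). Syk (0.58, SE 0.13, adjusted p = 0.0241) and Vav1 (0.91) of dectin-1 signalling passed, as did Clec5a (0.91), Ccl3 (3.29), Ccl4 (2.51) and Cxcl10 (1.94, SE 0.45, adjusted p = 0.0333), a chemokine gene named after its values were seen. All were higher in treated mice. Tlr12, Unc93b1, Irf7, Irf5, Syk and Cxcl10 did not pass in the first comparison. None of them passed between the APP-PS1 groups in edgeR, so a difference between both comparisons is not shown by that test. DESeq2 called Irf7 between the APP-PS1 groups, as given above. With the microglia markers as covariate Clec7a alone of the 10 passed (2.63, SE 0.37, adjusted p = 0.0185 in edgeR), where 7 genes did in all (0.0369%).

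Sex was a term in every fit except the alternative run without it. Of the 10 genes 9 had a lower estimate in males, with a median log2 fold change of -0.27, beside 0.002 over all genes tested, of which 51.1% were higher in males, and all 13 microglia markers had lower estimates in males as well (median -0.25). All 14 choroid plexus markers had higher estimates in males (median 1.44), and none of either list passed. None of the 10 passed in edgeR, where 6 genes did (0.0316%, with 953 or 5.02% at an unadjusted p under 0.05). The X-linked gene Tlr7 had the smallest p of the 10 (-0.55 in males, SE 0.12, adjusted p = 0.406 in edgeR), and DESeq2 called it (adjusted p = 0.0168, where it called 0.11% of genes). Both fits used the labelled sex, which counts APP-PS1 PBS replicate 1 as male despite its female pattern. DESeq2 was not run with the sex read from the genes. Clec7a had -0.57 (SE 0.19, adjusted p = 0.874 in edgeR).

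By the sex read from the genes, female WT mice had 8.89, 7.33, 7.46 and 6.79 CPM of Tlr7 and the male 6.47 CPM. Among APP-PS1 mice given PBS the 3 females had 13.6, 18.1 and 14.6 CPM and the 2 males 11.1 and 14.6 CPM. Among treated mice the 2 females had 13.9 and 19.1 CPM and the 3 males 8.35, 9.16 and 8.36 CPM. The male WT mouse was below all 4 females and the treated males below both treated females, while the sexes overlapped among APP-PS1 mice given PBS. Whether the effect of treatment differs by sex was not tested. With the sex read from the genes in the model Tlr7 had -0.52 (SE 0.13, adjusted p = 0.301 in edgeR), and Clec7a had -0.59 (SE 0.19, adjusted p = 0.376).

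**Figure D5:**
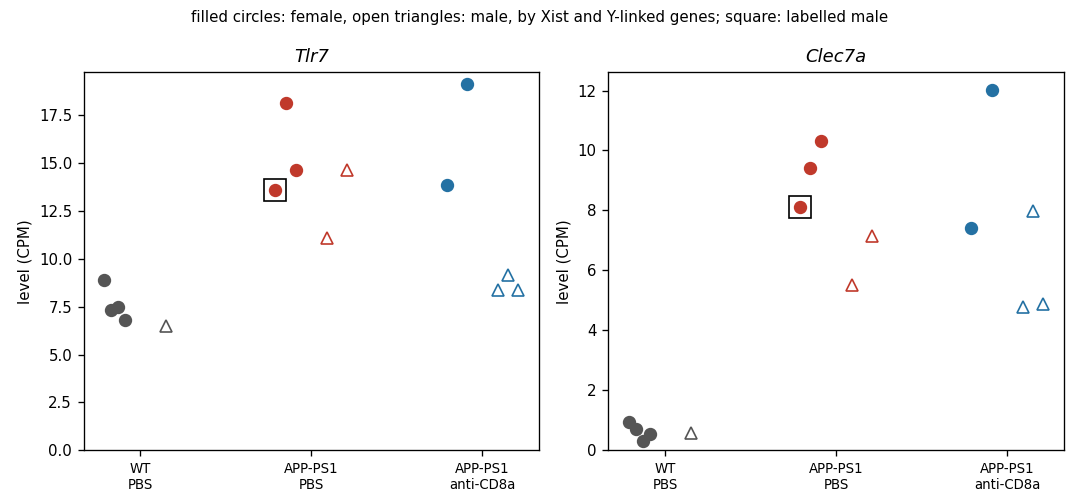
Levels of Tlr7 and Clec7a in CPM (y axes, from 0) in the 15 libraries by group, with filled circles for females and open triangles for males (by their Xist and Y-linked levels), and a square around the library labelled male that had the female pattern. For Tlr7 the 3 treated males sit between 8.35 and 9.16 CPM, below the 2 treated females.

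The levels moved together across the 15 libraries, which share the group differences, given here as a description. On log2 CPM the highest Pearson r between any 2 of the 10 genes was 0.96 (Cd14 with Tlr2), then 0.94 (Cd14 with Tlr13), and after subtraction of group means these were 0.85 and 0.85. Tlr3 stood aside, with r from -0.28 to 0.29 to the other 9 after subtraction of group means. With the log2 sum of microglia markers the r after subtraction of group means was 0.85 for Tlr7, 0.82 for Cd14 and for Tlr2, 0.79 for Clec7a, 0.78 for Tlr13, 0.75 for Myd88, 0.61 for Tlr1, 0.57 for Tlr9, 0.32 for Tlr4 and 0.10 for Tlr3. Of the genes that passed against WT, all but Tlr1 lay above every gene that did not pass. Myd88 (0.75), which did not pass, lay above Tlr1 (0.61), so the separation by this value was not complete. The part of this value in the calls was not tested. All r in this paragraph include anti-CD8a replicate 3, which had the highest marker sum (1161 CPM, next 790 CPM). They were not computed without it.

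Of all genes tested, those most like Clec7a over the 15 libraries were Cst7 (r = 0.99), which encodes cystatin F, Ccl6 (0.98) and Gm49339 (0.98). After subtraction of group means these r were 0.78, 0.85 and 0.73. Those most like Cd14 were Tyrobp, the signalling adaptor of TREM2 (0.96), Vsir (0.96) and Lair1 (0.96), and Tlr13 was most like the Fc receptor gene Fcgr3 (0.95), Vsir (0.94) and Cd14 (0.94). Tlr2 was most like the lysosomal mannosidase gene Man2b1 (0.97), Tyrobp (0.96) and the astrocyte filament gene Gfap (0.96). Tlr7 was most like Cmklr1 (0.95), Havcr2 (0.94) and Ncf1 (0.94), and Tlr1 most like Lcp1, Ddah1 and Cd53 (all 0.92). With group means subtracted, r over all the pairs named here ran from 0.66 (Tlr1 with Cd53) to 0.93 (Tlr7 with Cmklr1).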

How the data were processed

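Gene counts from 15 brain libraries of 15 mice, 1 library per mouse, were analysed. The authors deposited 1 table of raw counts per gene, made with FastQC, Bowtie2 2.2.2, HTSeq 0.11.2 and DESeq2 on the mouse build GRCm38, per the submitters' processing notes. Annotation release and strand setting were not given in the sources used here. Libraries were made with a stranded poly(A) kit and read on a NextSeq500, per the labels' protocols. Bowtie2 does not align reads across introns, so reads over exon junctions are lost more from genes with many exons. The 5 HTSeq summary lines (24.658% to 30.207% of reads) were left out.

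Counts were tested with edgeR 4.0.16 (quasi-likelihood, TMM scaling, filterByExpr) in R 4.3.3, on all 15 libraries with group and labelled sex in the model, and p-values were adjusted by Benjamini-Hochberg over the 18974 genes tested, with a threshold of 0.05. DESeq2 1.42.0, limma-voom (limma 3.58.1), other scalings, filters and covariates, and fits without single libraries were alternatives. The scripts were tested on simulated data. Correlations used log2 CPM with a prior count of 2. The 10 genes and all gene lists were chosen with earlier results of these data known. The text names all 10 genes, up to 3 genes of smallest p in each pathway list and, for each of the 10 that passed, the 3 genes most like it. Gene places came from GENCODE M21, and promoters from RefSeq GRCm38.p6. Replicates are numbered in accession order.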

Additional observations from a re-analysis of the deposited data

Results flagged for a closer look

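In 45 sets of 5 libraries, 3 had 1 library far from the rest by Dixon's criterion, which chance alone meets in about 1 in 20 sets. All 3 were the library of anti-CD8a replicate 3, the highest of its group. Tlr2 was at 8.491 CPM there and at 4.247 CPM in the next library. Tlr9 was at 3.962 CPM there and at 2.61 CPM in the next. The summed microglia markers were at 1161 CPM there and at 790 CPM in the next.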

How the results depend on the processing

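Clec7a passed against WT under every alternative run in both comparisons. With the microglia markers as covariate the count of the 10 genes called fell from 6 to 1 in both comparisons with WT, and all genes called fell from 195 to 8 (APP-PS1 PBS) and from 369 to 7 (anti-CD8a). In that fit the log2 fold changes of Tlr3 (-0.023), Tlr9 (-0.22) and Myd88 (-0.34) turned negative for APP-PS1 PBS against WT, those of Tlr2 (-0.092), Tlr3 (-0.0013), Tlr9 (-0.015), Tlr13 (-0.17) and Myd88 (-0.39) for anti-CD8a against WT, and those of Tlr1 (-0.13), Tlr2 (-0.12) and Myd88 (-0.052) between the APP-PS1 groups. Between the APP-PS1 groups other estimates near 0 also changed sign: Tlr1 with the choroid plexus covariate (-0.027), Tlr2 without the libraries rich in Ttr (-0.076), and Cd14 without sex (0.0037) or with sex read from genes (0.035). Of all genes, 358 were called for APP-PS1 PBS against WT by DESeq2, 115 without sex and 98 without the libraries rich in Ttr. For anti-CD8a against WT 199 were called without those libraries and 221 with the 2 groups alone. Between the APP-PS1 groups 13 were called with no filter, 143 by DESeq2 and 1 with the 2 groups alone, against 0. For sex 20 were called with no filter, 18 by DESeq2 (1 of the 10 genes, Tlr7), 13 with sex read from genes, and 0 by limma-voom or without the libraries rich in Ttr, against 6. The causes were not tested. Leaving out 1 library at a time gave 145 to 253 genes called for APP-PS1 PBS against WT, 140 (without anti-CD8a replicate 3) to 441 for anti-CD8a against WT, 0 to 3 between the APP-PS1 groups and 4 to 11 for sex, and 4 to 6 of the 10 genes in both comparisons with WT. Between the APP-PS1 groups it gave log2 fold changes of -0.14 to 0.22 for Tlr1, -0.20 to 0.22 for Tlr2, -0.17 to 0.084 for Cd14 and -0.073 to 0.070 for Myd88. No paired analysis was possible because the labels' animal numbers are not shared between groups. Where nothing says how mice were housed or libraries batched, p-values measure the spread between these mice. Tlr1, Clec7a in WT mice and Ccl4 rest on few counts.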

Other observations

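Of all genes tested, the one with the highest Pearson r to Myd88 over the 15 libraries was Cd8a, the gene of the antibody's target (r = 0.889, Spearman rho 0.854). It was picked as the highest of 18974 genes, after its values were seen, and is given as a description with no test. After subtraction of group means r was 0.883, and without anti-CD8a replicate 3 it was 0.860 (n = 14). Without the 2 libraries farthest from the median of Cd8a it was 0.873 (n = 13). Cd8a had 3 to 21 counts per library, so its levels are sparse and a correlation on them is no finding by itself.

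Tlr3 was most like Gbp2 (r = 0.919), an interferon-inducible GTPase gene, Vamp3 (0.915) and Tapbp (0.910), and Tlr4 was most like Abca9 (0.910). With group means subtracted, r was 0.84 for Gbp2, 0.95 for Vamp3, 0.82 for Tapbp and 0.80 for Abca9. These genes fall outside the naming rule and were chosen after their values were seen.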
